A study of Mus musculus with 16 samples.

Results

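The nuclear genes for the subunits of the 5 oxidative phosphorylation complexes were followed across 12 RNA-seq libraries of mouse neural stem cells. They were taken by symbol: Nduf genes with a subunit letter and number, Sdha to Sdhd, Uqcr genes, Cyc1, Cox4 to Cox8 genes and Atp5 genes, with pseudogenes and assembly factors left out. This gave 88 of 57132 genes: 37 for complex I, 4 for complex II, 9 for complex III, 20 for complex IV, 17 for complex V, and Atp5s, whose name fits although its product is not a subunit. The rule passed over 15 pseudogenes and a second Atp5o identifier without reads. Ndufab1, a complex I subunit, does not match the rule and is given among related genes.

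All libraries came from neural stem cells in self-renewing conditions (labelled GF), with TAPIR (labelled gRNA, 6 libraries) or without it (labelled control, 6 libraries). Each of the 2 labelled batches holds 3 gRNA and 3 control libraries. They are called gRNA and control libraries 1 to 3 in batch 1 and 4 to 6 in batch 2, and these numbers pair no samples. The labels give no line, clone, sex, age, dose or exposure time and do not say that libraries came from separate cultures, so p-values measure the spread between libraries, which may be technical. The 4 ribosome footprint libraries are not analysed here for these genes.

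Complexes I to IV pass electrons from NADH and succinate to oxygen, complexes I, III and IV pump protons across the inner mitochondrial membrane, and complex V, the ATP synthase, makes ATP as protons return. Most subunits are encoded in the nucleus and a few in mitochondrial DNA, so each complex except complex II is built from products of both genomes. Neural stem cells in culture draw on glycolysis to a large extent and are known to raise oxidative phosphorylation as they differentiate. Several complex IV subunits exist as isoforms that are typical of muscle, lung or testis.

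Nuclear respiratory factor 1 (NRF1), GABP (an ETS family factor) and YY1 are known to bind promoters of many oxidative phosphorylation genes, so the RefSeq promoter windows of the members (250 bases before to 50 after the annotated start, GRCm38.p6) were searched for their short motifs on both strands. Windows existed for 70 members, 75 in all. The NRF1 letters GCATGCGC were in 13.3% of member windows and 2.71% of all 32851 windows. The ETS letters CCGGAAG were in 22.7% against 8.86%, and the YY1 letters AAGATGGC in 13.3% against 2.75%. At least 1 of these motifs was in 31 of 75 member windows (41.3%) against 13.3% of all. The member windows also held more CpG, with a median of 19 (range 2 to 43) against 7 over all windows. A match is a description of the letters and no evidence of binding. The following 30-base stretches, 1 or more for each complex, show the motif in capitals on the gene's strand, either as given above or as its reverse complement (GCGCATGC, CTTCCGG). In Uqcrc1 and Cox6a1 the NRF1 letters overlap their own reverse complement.
Ndufs7 (complex I, YY1, chr10:80249462-80249491, plus strand): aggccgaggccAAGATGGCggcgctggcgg
Sdhb (complex II, NRF1, chr4:140961206-140961235, plus strand): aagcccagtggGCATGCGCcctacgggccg
Sdhb (complex II, ETS, chr4:140961266-140961295, plus strand): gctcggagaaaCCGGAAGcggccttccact
Uqcrc1 (complex III, NRF1, chr9:108936667-108936696, plus strand): gactccgctctGCGCATGCgcagcgcggct
Cox6a1 (complex IV, NRF1, chr5:115349102-115349131, minus strand): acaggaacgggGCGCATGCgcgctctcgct
Cox6b1 (complex IV, ETS, chr7:30626124-30626153, minus strand): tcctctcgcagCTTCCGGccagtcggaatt
Atp5j (complex V, ETS, chr16:84835019-84835048, minus strand): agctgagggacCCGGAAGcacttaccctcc
Atp5j (complex V, YY1, chr16:84835046-84835075, minus strand): aaagtgtaggaAAGATGGCggagtcttagc

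The widest difference described below was that of Cox6b2, the testis-typical isoform of a complex IV subunit whose widely expressed isoform is Cox6b1. Both genes lie on chromosome 7. The 250 bases before each annotated start are shown, with CpG in capitals, because Cox6b2 differed between batches and Cox6b1 did not pass the test.
Cox6b1 (chr7:30626115-30626364, minus strand): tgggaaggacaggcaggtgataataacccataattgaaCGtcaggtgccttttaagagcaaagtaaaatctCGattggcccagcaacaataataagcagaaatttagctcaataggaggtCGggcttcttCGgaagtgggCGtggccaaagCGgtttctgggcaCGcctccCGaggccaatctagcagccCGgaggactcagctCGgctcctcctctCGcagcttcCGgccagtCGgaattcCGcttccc
Cox6b2 (chr7:4753095-4753344, minus strand): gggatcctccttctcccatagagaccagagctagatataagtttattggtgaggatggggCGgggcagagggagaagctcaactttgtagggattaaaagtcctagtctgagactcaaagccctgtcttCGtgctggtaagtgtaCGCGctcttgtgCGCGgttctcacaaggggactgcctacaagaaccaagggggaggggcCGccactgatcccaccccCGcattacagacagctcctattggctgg
The Cox6b1 stretch held 14 CpG at a GC content of 54.0% and the Cox6b2 stretch 8 CpG at 54.8%. The ETS letters were in the Cox6b1 window, and none of the 3 motifs was found in the Cox6b2 window.

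Reads in genes ranged from 8414028 to 19454390 per library, and 52611 to 78833 of them fell on the 88 members. Levels are CPM (reads scaled to a common library total) after TMM scaling of library sizes, and 3 reads correspond to 0.157 to 0.398 CPM. The neural stem cell markers Sox2, Nes, Pax6, Fabp7, Vim and Sox9 were detected in each library, with summed levels of 1184 to 1951 CPM in batch 1 and 1164 to 1383 CPM in batch 2. Summed astrocyte markers were 105 to 209 CPM in batch 1 and 30.3 to 129 CPM in batch 2, neuron markers 652 to 954 and 651 to 820 CPM, and oligodendrocyte lineage markers 181 to 394 and 211 to 302 CPM. Map2 made up most of the neuron sum and Olig1 most of the oligodendrocyte sum, and other neuron markers moved: the median of Tubb3 was 3.34 CPM in batch 1 and 15.6 CPM in batch 2, that of Rbfox3 8.86 and 1.07 CPM, and that of Dcx 2.37 and 0 CPM. Astrocyte markers moved in both directions. The medians of Gfap, Aqp4 and Aldh1l1 were 14.7, 20.4 and 140 CPM in batch 1 and 1.14, 0.897 and 9.99 CPM in batch 2. S100b was higher in batch 2, at 20.9 to 52.9 CPM against 7.16 to 12.6 CPM. Within batch 2, Gfap ran from 0.391 to 40.8 CPM. The batches differed widely: 10879 of 17704 genes tested passed an adjusted p of 0.05. Reads that the counting assigned to no feature made up 18.95% to 25.07% of the batch 1 libraries, against 8.83% to 12.7% for batch 2. Where these reads lie is not known. Of 55 replication-dependent histone genes, listed as mRNAs without a poly(A) tail, 54 were called, 52 of them lower in batch 2. Their median log2 difference, batch 2 minus batch 1, was -4.74, and 49 differed by more than 1. The part of these differences in the results below was not tested.

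A filter on low counts kept 82 members: 36 of complex I, all 4 of complex II, all 9 of complex III, 15 of complex IV, all 17 of complex V, and Atp5s. In bulk RNA, fewer cells of a type and less RNA per cell cannot be told apart. The 6 left out (Cox4i2, Cox6a2, Cox7b2, Cox8b, Cox8c and Ndufb4c) had at most 13 reads in any library. In both batches and both groups the tested members other than Cox6b2, Cox7a1 and Ndufa4l2 were detected above 10 CPM in each library.

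Within batch 1 the members moved together from library to library. The median deviation of the 82 members from their batch means, on the log2(CPM + 0.5) scale, was 0.45 in control library 2, where 80 of 82 were above the mean, and 0.30 in gRNA library 1, where 81 were above. It was -0.02 in control library 1, -0.18 in gRNA library 2, -0.22 in gRNA library 3 and -0.31 in control library 3, where 80 were below. The gene encoding the ATP synthase beta subunit shows the size of this: Atp5b stood at 245, 411 and 183 CPM in control libraries 1 to 3 and at 316, 200 and 204 CPM in gRNA libraries 1 to 3. Control library 2 and gRNA library 1 were the highest of their groups, and the groups overlapped. All 36 complex I genes, all 9 complex III genes and all 17 complex V genes were above their batch mean in both of these high libraries. The medians in control library 2 were 0.35 for complex I, 0.48 for complex II, 0.52 for complex III, 0.56 for complex IV and 0.52 for complex V.

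Other gene groups shifted in the same libraries. Cytosolic ribosomal protein genes had medians of 0.55 in control library 2, 0.34 in gRNA library 1 and -0.34 in control library 3, and citric acid cycle genes had 0.39, 0.23 and -0.28. Replication-dependent histones had 0.51, 0.23 and -0.21, and mitochondrially encoded subunits had 0.81, 0.42 and -0.46. Assembly factors, which build the complexes but are not part of them, had only 0.02, 0.12 and -0.09, and the median of all genes tested was -0.01 in control library 2. Control library 2 was also the shallowest (8414028 reads in genes), gRNA library 1 the next (10515276) and control library 3 the deepest (19454390). The part of depth was not tested.

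In batch 2 the members spread less. Their medians were 0.15 in control library 4, -0.08 in control library 5, 0.02 in control library 6, -0.12 in gRNA library 4, -0.05 in gRNA library 5 and 0.09 in gRNA library 6. The SD of a member across the 6 libraries of a batch, on the log2(CPM + 0.5) scale, had a median of 0.32 in batch 1 and 0.11 in batch 2. Over all genes tested it was 0.19 and 0.21, and over the 10760 genes with a mean of at least 10 CPM it was 0.14 and 0.16. The members therefore varied more than the typical gene in batch 1 and less in batch 2.

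**Figure D1:**
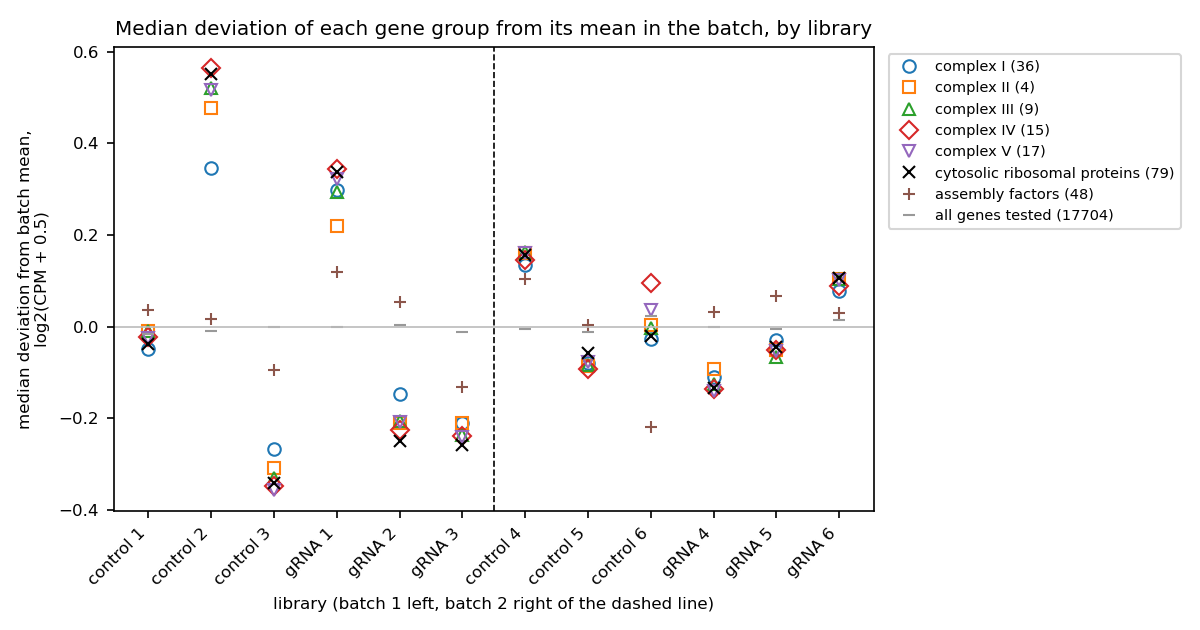
Median deviation of each gene group from its batch mean (y axis, log2(CPM + 0.5)) in the 12 libraries (x axis), with the number of genes in brackets. The 5 complexes lie together in each library, highest in control library 2 (0.35 to 0.56) and lowest in control library 3, close to the ribosomal proteins. Assembly factors lie nearer to 0 in those libraries but not in control library 6, where they are at -0.22.

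With TAPIR, no member passed the test in either direction (0 of 82 in edgeR's quasi-likelihood test over both batches). This was also so for all genes: 0.0% of 17704 were called, 230 had an unadjusted p under 0.05, and none of these was a member. DESeq2 called 0 of 17663 genes, with 216 at an unadjusted p under 0.05. The fitted differences of the members ran from -0.19 to 0.18 on the log2 scale, with a median of -0.08 against -0.01 for all genes. Of 82 members, 75 were below 0, against 52.3% of all genes. This was not particular to the members. Below 0 were also 72 of 79 cytosolic ribosomal protein genes, 48 of 55 replication-dependent histones and 10 of 11 mitochondrially encoded subunits. The same held for 14 of 16 glycolysis genes and 13 of 16 citric acid cycle genes. Assembly factors (15 of 48), regulators of mitochondrial gene expression (4 of 12) and mobile carriers (2 of 5) had fewer below 0. The 95% interval lay within 1.5-fold in both directions for 79 of 82 members, against 65.2% of all genes, and within 2-fold for all 82. A mean of at least 10 CPM was reached by 79 members but only by 10760 of 17704 genes. The share within 1.5-fold among these 10760 genes was not computed.

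The direction of the members' median rested on control library 2. Without control library 2 it was 0.02, with 59 of 82 members above 0. Without gRNA library 1 it was -0.16, without control library 3 it was -0.13, without gRNA library 3 it was -0.03, and without control library 2 and gRNA library 1 together, an alternative added after the data were seen, it was -0.05. None of these changed the count of 0 members called.

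The complexes had like values in this comparison. The median log2 difference between gRNA and control was -0.04 for complex I (30 of 36 below 0), -0.09 for complex II (4 of 4), -0.10 for complex III (9 of 9), -0.11 for complex IV (15 of 15) and -0.09 for complex V (17 of 17). Without control library 2 these medians were 0.03, 0.02, 0.02, 0.0077 and 0.01, with 8 of 36, 2 of 4, 3 of 9, 5 of 15 and 5 of 17 below 0. In complex I the members with the smallest p were Ndufs7, a core subunit that carries an iron-sulfur cluster, with -0.12 (SE 0.10), and Ndufc2, an accessory subunit, with -0.16 (SE 0.15). In complex II they were Sdha, the flavoprotein that oxidises succinate, with -0.12 (SE 0.12), and Sdhc, a membrane anchor, with -0.11 (SE 0.12). In complex III they were Cyc1, cytochrome c1, with -0.12 (SE 0.11), and Uqcrc2, a core protein, with -0.10 (SE 0.11). In complex IV they were Cox8a with -0.17 (SE 0.14) and Cox5a with -0.15 (SE 0.14). In complex V they were Atp5a1, the alpha subunit, with -0.16 (SE 0.16), and Atp5g2, which encodes subunit c of the rotor, with -0.12 (SE 0.11). Each of these differences was within 2 standard errors of 0. Without control library 2 these 10 values lay between -0.05 (Ndufs7) and -0.0020 (Sdha).

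The values behind them overlapped. Sdha stood at 246, 359 and 201 CPM in the batch 1 controls and 293, 215 and 223 CPM in the batch 1 gRNA libraries. In batch 2 it stood at 237, 206 and 238 CPM in controls and 199, 204 and 234 CPM in gRNA libraries. Control library 2 was highest and gRNA library 1 next, and the other 10 libraries lay between 199 and 246 CPM. Cox8a stood at 43.2, 71.3 and 37.5 CPM against 52.2, 37.4 and 40.2 CPM in batch 1, then at 48.4, 42.1 and 46.8 CPM against 37.5, 41.5 and 47.4 CPM in batch 2. Again the groups overlapped in both batches.

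Atp5s (now Dmac2l), which is not counted among the subunits, had the highest fitted difference of the 82, 0.18 (SE 0.10), and the smallest p, 0.0948 unadjusted. Its levels were 16.3, 14.5 and 14.4 CPM in controls and 19.0, 18.2 and 15.05 CPM in gRNA libraries of batch 1, and 11.9, 13.4 and 11.9 CPM against 14.1, 14.2 and 12.9 CPM in batch 2. The groups overlapped in both batches.

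Within single batches the outcome was the same. In batch 1, 0 of 81 members were called (0.0% of 16988 genes; 147 genes and no member at an unadjusted p under 0.05), with a member median of -0.09. In batch 2, 0 of 81 were called (0.0% of 15647 genes; 116 genes and no member at an unadjusted p under 0.05), with a median of -0.05. The fitted difference had the same sign in both batches for 64 of 80 members tested in both. The share over all genes was not computed, and members that move together are not separate observations. The signs also rested on single libraries. Without control library 2 the batch 1 median was 0.14, with 78 of 82 members above 0. Without control library 4 the batch 2 median was 0.02, with 46 of 81 above 0. An interaction of treatment with batch passed the threshold for 0 of 82 members (0.0% of 18279 genes; 236 genes and no member at an unadjusted p under 0.05).

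Between the batches, 14 of 82 members (17.1%) passed the test and all 14 were lower in batch 2, against 61.4% of all genes (33.1% lower and 28.4% higher). The median log2 difference, batch 2 minus batch 1, was -0.12 for the members and -0.03 for all genes. Only Cox6b2, Cox7a1 and Ndufs5 differed by more than 1 on the log2 scale, 3.66% of members, against 30.0% of all genes. When only genes averaging 10 CPM or more were kept, 1 of 79 members and 12.3% of 10760 genes did so, and 12 of 79 members and 54.9% of these genes were called. The levels of the 2 batches did not overlap for 4 tested members (4.88%), all lower in batch 2, against 41.6% of all genes.

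The members had small differences, and also larger standard errors than genes with a mean of at least 10 CPM. The part of each in the small share of calls was not tested. The median absolute log2 difference was 0.15 for members, 0.44 for all genes and 0.27 for genes with a mean of at least 10 CPM, while the median SE was 0.13, 0.14 and 0.10. The 95% interval lay within 1.5-fold in both directions for 65 of 82 members and 38.8% of all genes, and within 2-fold for 79 members and 58.3% of all genes. These shares were not computed for genes with a mean of at least 10 CPM alone.

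Which members passed, and the direction of the median, depended on the high libraries of batch 1. Without gRNA library 1 and control library 2 together, 24 members were called higher and 6 lower, against 60.8% of all genes called (29.7% higher and 31.1% lower), with a median of 0.12 and 57 of 82 above 0. The members called higher were 15 of 36 in complex I, 3 of 9 in complex III, 1 of 15 in complex IV and 5 of 17 in complex V. The 6 called lower were Cox6b2, Cox7a1, Ndufs5, Atp5l, Cox7c and Atp5s. With control library 2 alone left out, 7 members were called higher and 10 lower, against 5447 and 5804 of 18375 genes. With gRNA library 1 alone left out, 5 were called higher and 10 lower, against 5122 and 5948 of 18320 genes. Over the fit with all libraries and the 18 alternatives run, 5 members were called lower each time: Cox6b2, Cox7a1, Ndufs5, Atp5l and Cox7c.

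**Figure D2:**
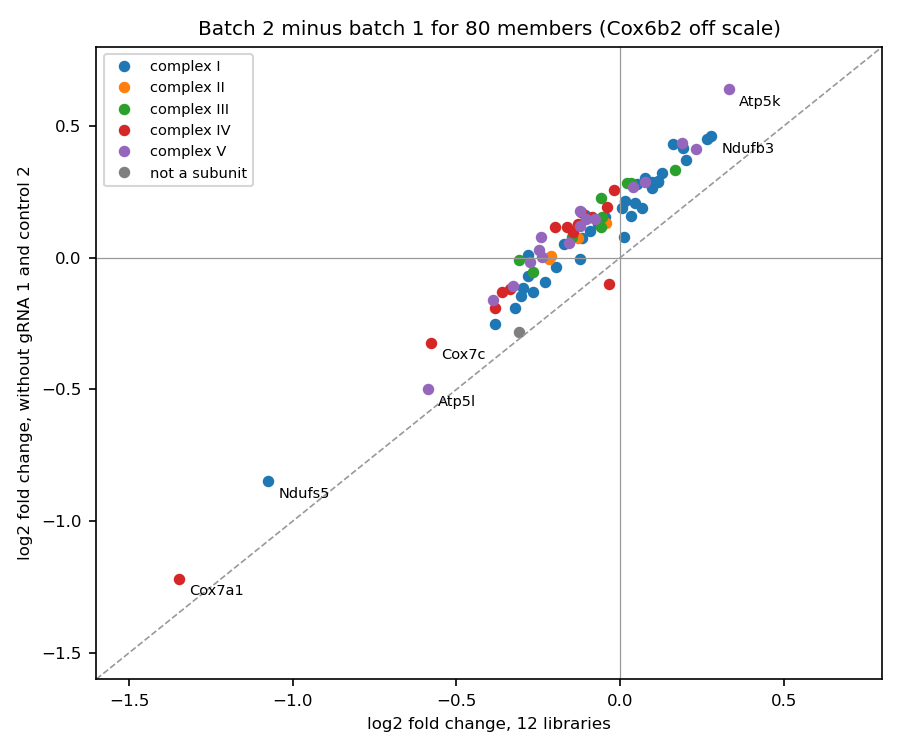
Fitted log2 difference, batch 2 minus batch 1, with all 12 libraries (x axis) and without gRNA library 1 and control library 2 (y axis), 1 point for each of 80 members and coloured by complex; Cox6b2, at -6.70 and -6.59, lies outside the plot. All points but Ndufa4l2 lie above the dashed line of equality, and Cox7a1, Ndufs5, Atp5l and Cox7c stay well below 0 on both axes.

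In complex I, 6 of 36 members (16.7%) were lower in batch 2 and none higher, against 33.1% of all genes lower and 28.4% higher. The median log2 difference was -0.02. Ndufs5, an accessory subunit on the intermembrane side, changed most, to 2.11-fold lower in batch 2 (95% interval 1.67 to 2.66, adjusted p = 3.43e-05). It stood at 23.3, 34.1 and 18.8 CPM in controls and 30.1, 20.9 and 21.6 CPM in gRNA libraries of batch 1, against 14.7, 10.6 and 10.6 CPM and 10.7, 11.52 and 12.2 CPM in batch 2. The 2 batches did not overlap. Without gRNA library 1 and control library 2 its log2 difference was -0.85 in place of -1.08.

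The other 5 complex I genes called had differences of -0.27 to -0.38 on the log2 scale. Among the core subunits reported, which carry the redox centres and bind NADH or quinone, only Ndufs1, the largest iron-sulfur subunit, was called: 165 ± 28.4 CPM in batch 1 and 134 ± 6.36 CPM in batch 2 (SD, n = 6), a log2 difference of -0.30 (SE 0.10, adjusted p = 0.0173). Ndufs3 (-0.19) and Ndufv2 (-0.17) had negative values, and Ndufs7 (0.03), Ndufs8 (0.01) and Ndufv1 (0.05) had values near 0, none past the threshold. Among 29 accessory subunits tested, 5 were lower. Besides Ndufs5 these were Ndufb8 (-0.38), Ndufv3 (-0.32), Ndufa10 (-0.30) and Ndufb5 (-0.27). Ndufa10 and Ndufb5 are named after their values were seen. Without the pair of high libraries, Ndufs1, Ndufb8, Ndufv3, Ndufa10 and Ndufb5 were not called. Ndufs1 then had -0.14, Ndufb8 -0.25 and Ndufv3 -0.19.

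The highest values in complex I, named after they were seen, belonged to 2 accessory subunits of the membrane arm. Ndufb3 had 0.28 (95% interval 0.02 to 0.53, adjusted p = 0.0555) and Ndufb11 0.27 (0.01 to 0.52, adjusted p = 0.0626). Ndufb3 stood at 22.9, 31.7 and 22.2 CPM in controls and 31.4, 22.9 and 21.8 CPM in gRNA libraries of batch 1, against 35.1, 29.3 and 28.9 CPM and 29.99, 32.3 and 28.7 CPM in batch 2. Only the high libraries of batch 1 reached the levels of batch 2, and without them its log2 difference was 0.46 and it was called higher.

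In complex II, which is wholly nuclear-encoded and also part of the citric acid cycle, 0 of 4 members were called. The values were -0.22 (SE 0.12) for Sdha, -0.21 (SE 0.13) for Sdhb, the iron-sulfur subunit, -0.13 (SE 0.12) for Sdhc and -0.04 (SE 0.11) for Sdhd. All 4 intervals included 0, and that of Sdha ran from -0.49 to 0.05. Without the high libraries the values were -0.0059 for Sdha, 0.0072 for Sdhb, 0.074 for Sdhc and 0.13 for Sdhd, none called, so the direction of the last 3 turned. Without control library 2 alone, Sdhc (0.0064) and Sdhd (0.085) had turned already.

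In complex III, 0 of 9 members were called, with a median of -0.06. The core proteins Uqcrc1 and Uqcrc2 had -0.27 (SE 0.13) and -0.06 (SE 0.11), the Rieske iron-sulfur protein Uqcrfs1 -0.06 (SE 0.12), and Cyc1 0.17 (SE 0.11). Cyc1 stood at 99.9, 141 and 86.7 CPM in controls and 108, 89.4 and 88.0 CPM in gRNA libraries of batch 1, and between 108 and 127 CPM in all 6 libraries of batch 2. Control library 2 lay above the range of batch 2 and 4 libraries of batch 1 below it. Without the high libraries Cyc1 had 0.33 and was called higher (adjusted p = 0.0018).

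In complex IV, 5 of 15 members were called lower (33.3%), a share near the 33.1% of all genes called lower, and none higher. All 15 had negative values, with a median of -0.16. Without the high libraries the median was 0.096, with 8 of 15 above 0, and 3 were called lower and 1, Ndufa4, higher (0.26). Cox7c, a small subunit without isoforms in this list, was 1.49-fold lower in batch 2 (95% interval 1.202 to 1.86, adjusted p = 0.00325). It stood at 44.6, 62.9 and 34.2 CPM in controls and 60.7, 41.0 and 36.2 CPM in gRNA libraries of batch 1, and from 29.7 to 34.0 CPM in the 6 libraries of batch 2. The batches did not overlap, by a small margin: control library 3 had 34.2 CPM and control library 4 had 34.0 CPM. Its log2 difference was -0.32 without the high libraries, and it was still called.

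Of the core-associated nuclear subunits of complex IV, Cox4i1 had -0.16 (SE 0.15), Cox5a -0.34 (SE 0.14, adjusted p = 0.051) and Cox5b -0.36 (SE 0.14, adjusted p = 0.0344). Cox5b stood at 50.5 ± 12.5 CPM in batch 1 and 39.1 ± 3.28 CPM in batch 2 (SD, n = 6). The batches overlapped, and without the high libraries Cox5b had -0.13 and was not called.

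In complex V, 2 of 17 members (11.8%) were lower and none higher, against 33.1% of all genes lower and 28.4% higher. The median was -0.12. Atp5l, subunit g of the membrane part, was 1.504-fold lower in batch 2 (95% interval 1.23 to 1.83, adjusted p = 0.00154). It stood at 22.1, 25.2 and 17.5 CPM in controls and 21.0, 23.5 and 14.8 CPM in gRNA libraries of batch 1, against 14.6, 15.04 and 11.8 CPM and 13.1, 14.6 and 13.1 CPM in batch 2. Only gRNA library 3 of batch 1 reached the batch 2 range. Atp5o, the stalk subunit that binds the catalytic head, had -0.39 (SE 0.14, adjusted p = 0.0301), and -0.16 without the high libraries, where it was not called.

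The catalytic head genes did not pass the test. Atp5a1 had -0.12 (95% interval -0.47 to 0.22), Atp5b -0.24 (-0.61 to 0.12) and Atp5c1, the gamma subunit of the central shaft, -0.11 (-0.41 to 0.20). Without the high libraries these 3 values were 0.18, 0.08 and 0.15. Atp5k, subunit e, had the highest value of complex V, 0.33 (SE 0.17), and is named after its value was seen. It was called higher without the high libraries (0.64).

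Atp5s was lower in batch 2 by 0.31 on the log2 scale (adjusted p = 0.0148), at 16.2 ± 1.96 CPM in batch 1 and 13.1 ± 1.04 CPM in batch 2 (SD, n = 6), with no overlap.

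**Figure D3:**
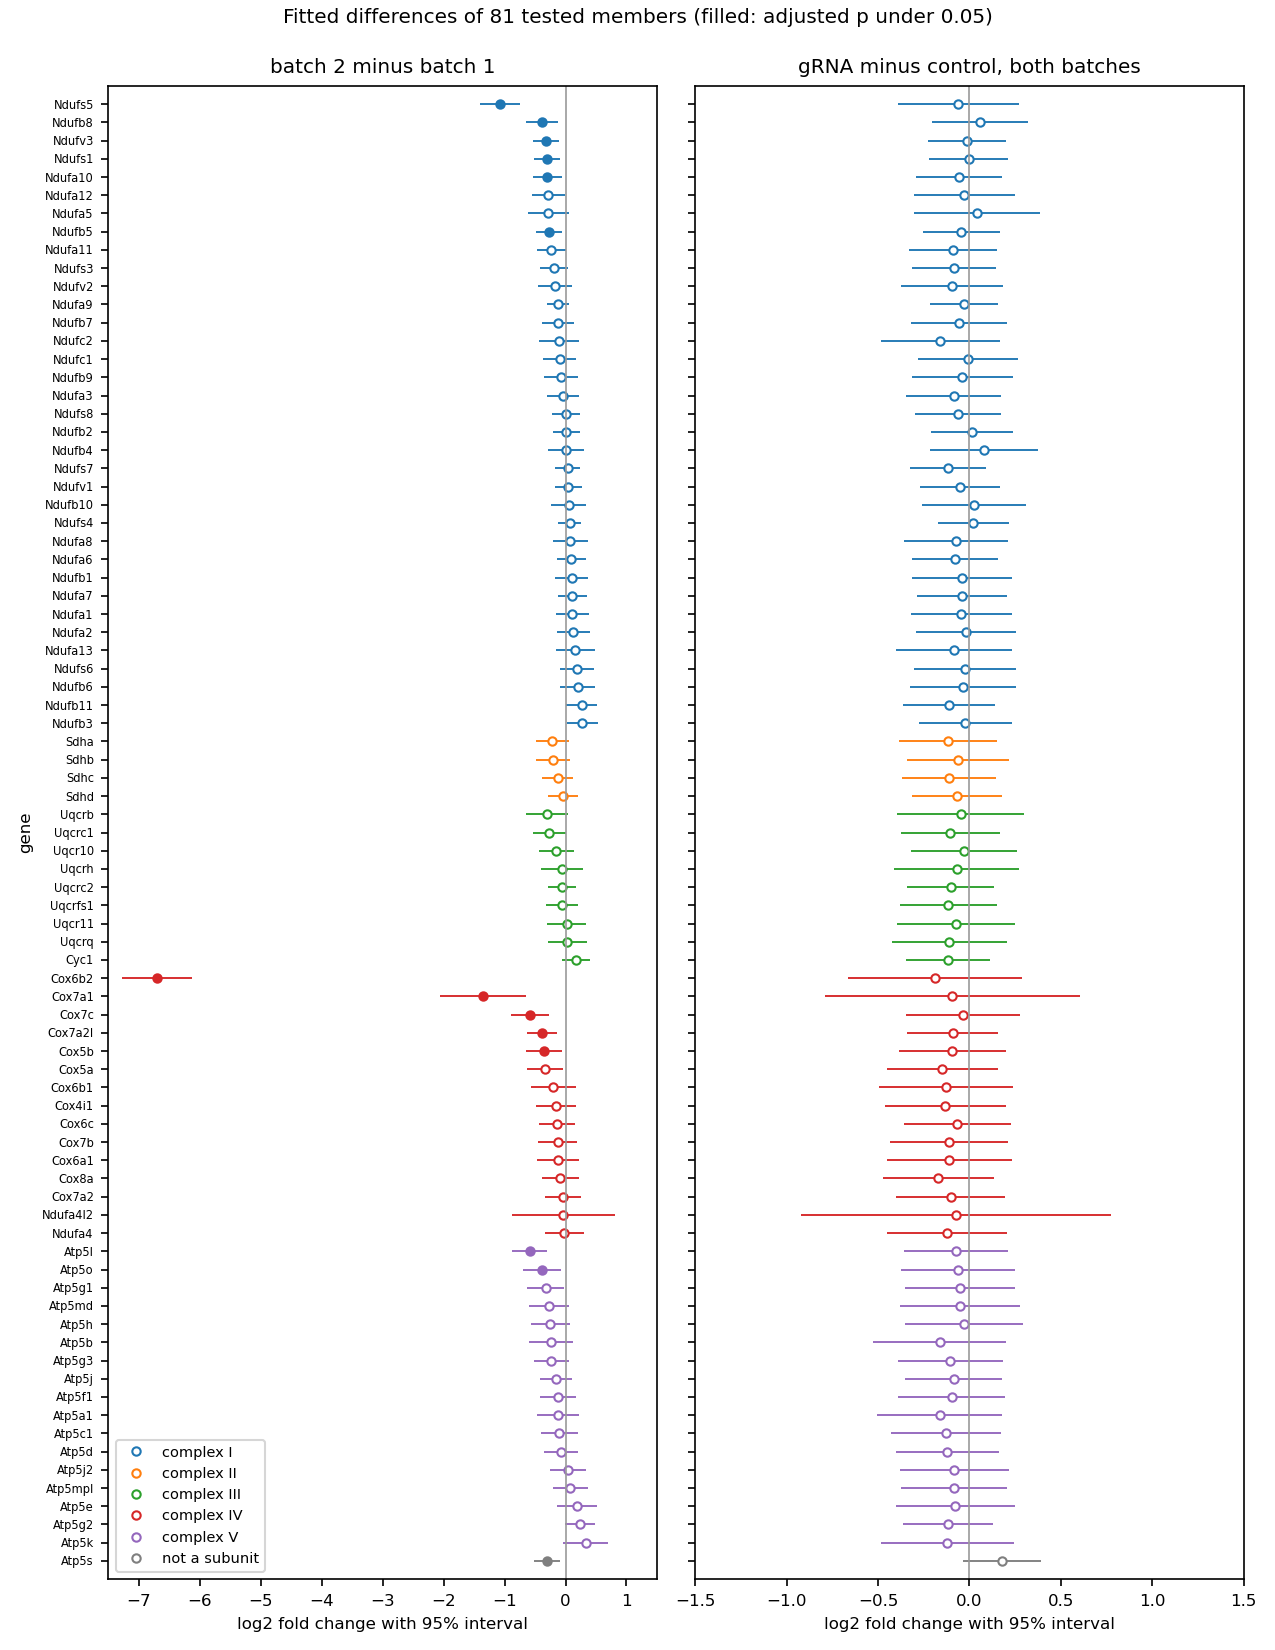
Fitted log2 differences with 95% intervals (x axes) of 81 tested members (y axis, grouped by complex), for batch 2 minus batch 1 (left) and gRNA minus control (right, on its own scale); filled points passed an adjusted p of 0.05. The 14 filled points are all on the left panel and below 0, and on the right panel each interval includes 0.

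Cox6b2 was the member with the widest difference. It stood at 19.0, 25.8 and 14.8 CPM in controls and 18.5, 19.7 and 17.1 CPM in gRNA libraries of batch 1, from 185 to 358 reads in each. In batch 2 it stood at 0.150, 0.308 and 0.218 CPM in controls and 0.0558, 0.242 and 0.0724 CPM in gRNA libraries, from 1 to 5 reads in each and 16 in all. It was 104-fold lower in batch 2 (95% interval 70.3 to 154, adjusted p = 6.2e-11), and its log2 difference lay between -6.92 and -6.50 in every alternative run. Its paralog Cox6b1, present in each library, had a log2 difference of -0.20 (95% interval -0.56 to 0.17, adjusted p = 0.334), with 52.8 ± 17.0 CPM in batch 1 and 45.7 ± 5.28 CPM in batch 2 (SD, n = 6). Within batch 1 Cox6b2 did not differ between gRNA and control beyond the spread of its libraries (-0.08 on the log2 scale).

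The testis germ cell markers fixed for comparison (Ddx4, Prm1, Prm2, Tnp1, Dazl and Sycp3) summed to 1.46 to 2.20 CPM in batch 1 and 0.364 to 1.97 CPM in batch 2. Prm2, Tnp1 and Dazl were at or below 0.133 CPM in all 12 libraries and at 0 in all of batch 2. Ddx4 stood at 0.776 to 1.42 CPM in batch 1 and 0.0606 to 1.09 CPM in batch 2, and Sycp3 at 0.330 to 0.955 and 0.145 to 0.655 CPM, both with a lower median in batch 2 and with overlap. Their part in the Cox6b2 difference was not tested. Other testis-typical members did not accompany Cox6b2: Cox8c had 2 reads in control library 2 and 0 in the other 11 libraries, and Cox7b2 had 0 to 2 reads per library.

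Cox7a1, the isoform typical of heart and skeletal muscle, was 2.55-fold lower in batch 2 (95% interval 1.56 to 4.15, adjusted p = 0.00259) at a low level. It stood at 1.84, 1.59 and 1.36 CPM in controls and 2.20, 1.98 and 0.657 CPM in gRNA libraries of batch 1, against 0.376, 0.863 and 0.728 CPM and 0.838, 0.546 and 0.290 CPM in batch 2. The batches overlapped only through gRNA library 3, and the gene had 4 to 36 reads per library. The widely expressed Cox7a2 had -0.04 (95% interval -0.34 to 0.26), and Cox7a2l, which helps join complexes III and IV, -0.38 (adjusted p = 0.011). It had -0.19 without the high libraries and was not called (adjusted p = 0.0509). The 8 muscle markers summed to 10.4 to 13.9 CPM in batch 1 and 4.95 to 7.46 CPM in batch 2, with Ttn the most abundant (5.58 to 8.70 and 1.60 to 3.24 CPM) and Ckm, Tnnt2, Myl2 and Mb at or below 0.354 CPM throughout. Acta1 was higher in batch 2, at 0.677 to 1.061 CPM against 0.398 to 0.660 CPM, without overlap. Their part in the Cox7a1 difference was not tested.

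The other muscle-type and lung-type isoforms were near the limit of detection. Cox6a2, the muscle partner of Cox6a1, had 3 to 13 reads per library in batch 1 and 0 to 2 in batch 2, without overlap. It did not pass the low-count filter, and without the filter its log2 difference was -2.25 (adjusted p = 0.000964). Cox8b had 2 to 8 reads per library in batch 1 and 0 to 5 in batch 2, and Cox4i2, the lung-type and hypoxia-induced partner of Cox4i1, 1 to 6 and 0 to 2. Ndufa4l2, the hypoxia-induced partner of Ndufa4, had 0 to 18 reads per library and a value of -0.04 with a wide interval (-0.88 to 0.81). A symbol Uqcrhl was not found among the genes. The broadly expressed partners had values of -0.12 for Cox6a1, -0.13 for Cox7b, -0.08 for Cox8a, -0.02 for Ndufa4 and -0.06 for Uqcrh, none past the threshold.

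Subunit c of the ATP synthase rotor is encoded by 3 genes with the same mature product. Atp5g1 had -0.33 (95% interval -0.63 to -0.03, adjusted p = 0.0574), Atp5g3 -0.24 (-0.52 to 0.05) and Atp5g2 0.23 (-0.01 to 0.48, adjusted p = 0.0953) between batches. Atp5g2 stood at 29.1, 40.6 and 25.7 CPM in controls and 34.2, 26.1 and 25.8 CPM in gRNA libraries of batch 1, and from 31.8 to 37.8 CPM in batch 2. Without the high libraries Atp5g2 was called higher (0.41, adjusted p = 0.00114), Atp5g1 had -0.11 and Atp5g3 0.00.

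**Figure D4:**
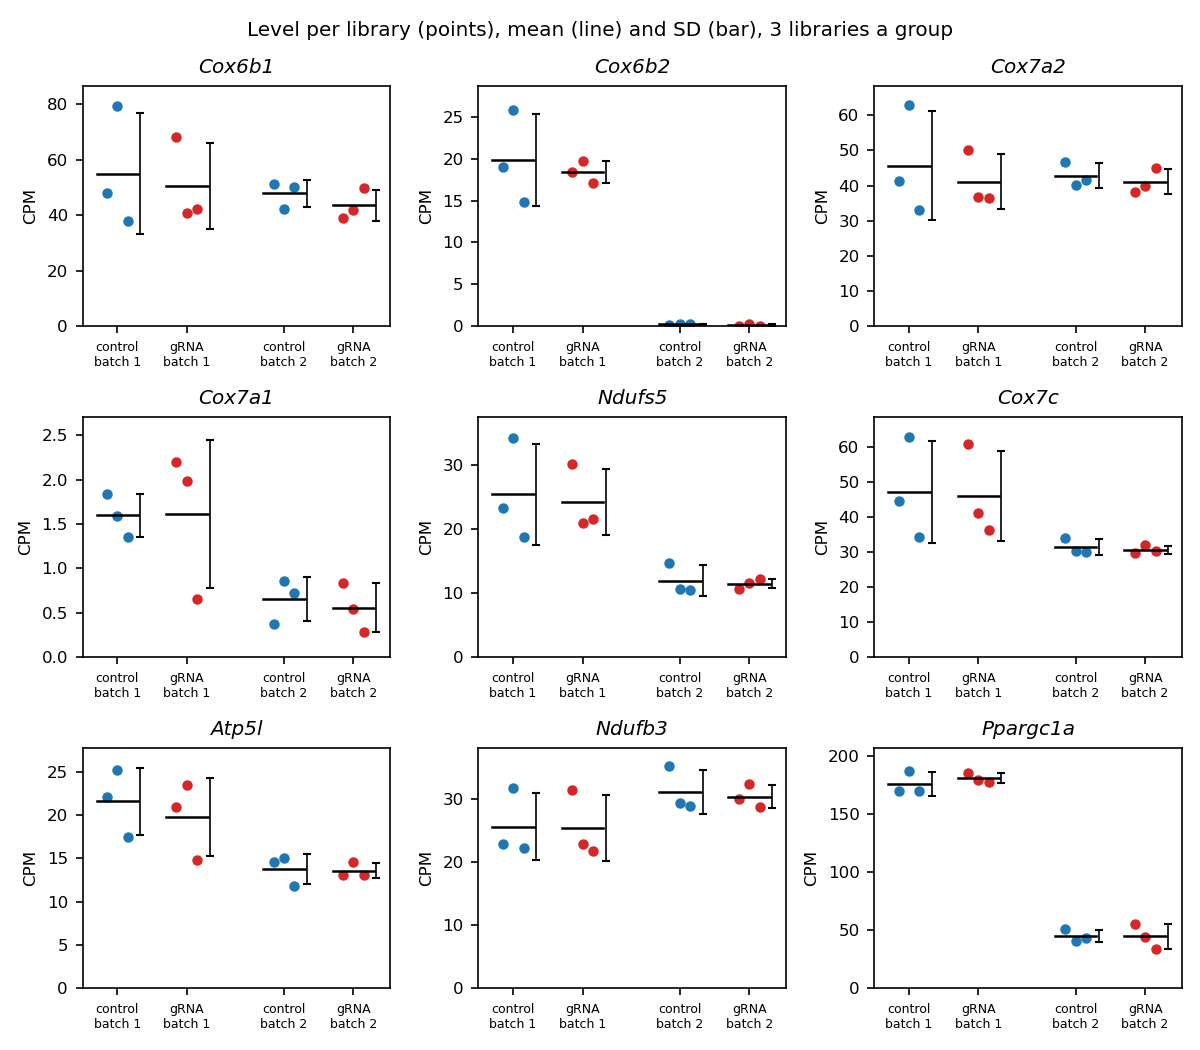
Level in CPM (y axes, from 0) of 8 members and of Ppargc1a in the 12 libraries, by group and batch (x axes); points are libraries, lines means and bars SD of 3 libraries. Cox6b2 fell to under 0.4 CPM in batch 2 while Cox6b1 overlapped between batches, and Ppargc1a fell from at least 169.5 to at most 55.3 CPM.

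The genes that build, serve and regulate the complexes were followed as lists. Of 48 assembly factors tested, 26 were called between batches (54.2%), 11 higher and 15 lower, a share near the 61.4% of all genes (28.4% higher and 33.1% lower). Lyrm7, an assembly factor for the Rieske protein of complex III, was lower by 1.60 on the log2 scale (SE 0.13). Ndufaf4 was lower by 0.69 and Sco1, a copper chaperone of complex IV, by 0.67. Ndufaf2 was higher by 0.57 and Cox16 by 0.54. Of 5 mobile carrier and related genes, 3 were lower: Cycs, cytochrome c, with -0.57 (SE 0.14), Hccs, which attaches its haem, with -0.49 (SE 0.12), and Ndufab1, the acyl carrier subunit of complex I, with -0.33 (SE 0.09).

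Of 11 mitochondrially encoded subunits tested, 3 were called (27.3%, against 61.4% of all genes). All 3 were higher in batch 2: mt-Atp6 (1.92), mt-Co2 (1.87) and mt-Co3 (1.498). Their counts were low. mt-Co2 stood at 0.220 to 0.797 CPM in batch 1 and 1.21 to 2.61 CPM in batch 2. The other 8 had values of -0.13 to -0.24 and none was called. Of these, mt-Co1 stood at 113 to 279 CPM in batch 1 and 118 to 157 CPM in batch 2. Why the counts of mt-Atp6, mt-Co2 and mt-Co3 were low was not tested.

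Among 12 regulators of mitochondrial gene expression, 8 were called (66.7%), near the 61.4% of all genes. Ppargc1a, the PGC-1 alpha coactivator, stood between 169.5 and 187 CPM in batch 1 and between 34.2 and 55.3 CPM in batch 2, a log2 difference of -1.99 (SE 0.10, adjusted p = 9.27e-10). Ppargc1b had -1.58 (SE 0.16). Nrf1 was higher by 0.22 (SE 0.06), Polrmt by 0.37 and Polg by 0.35, and Gabpa (-0.21), Gabpb1 (-0.18) and Tfb2m (-0.20) were lower. Esrra, Yy1, Tfam and Pprc1 were not called. Pprc1, a related coactivator, had -0.20. No test links the coactivators to the members here.

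Of 16 citric acid cycle genes, 5 were lower in batch 2 and none higher: Idh3a (-0.53), Ogdh (-0.51), Sucla2 (-0.39), Dlat (-0.31) and Dlst (-0.27). Of 16 glycolysis genes, 4 were lower and 3 higher. Pfkp was lower by 3.42 on the log2 scale and Pfkl higher by 1.70, which are 2 isoforms of phosphofructokinase, the main control step of glycolysis. Hk1 was lower by 0.94 and Hk2 higher by 0.70, although control library 6 had 33.7 CPM of Hk2 against 113 to 129 CPM in the other libraries of batch 2. Of 79 cytosolic ribosomal protein genes, 8 were called (10.1%), against 31.25% of the citric acid cycle genes, 43.75% of the glycolysis genes and 61.4% of all genes.

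**Figure D5:**
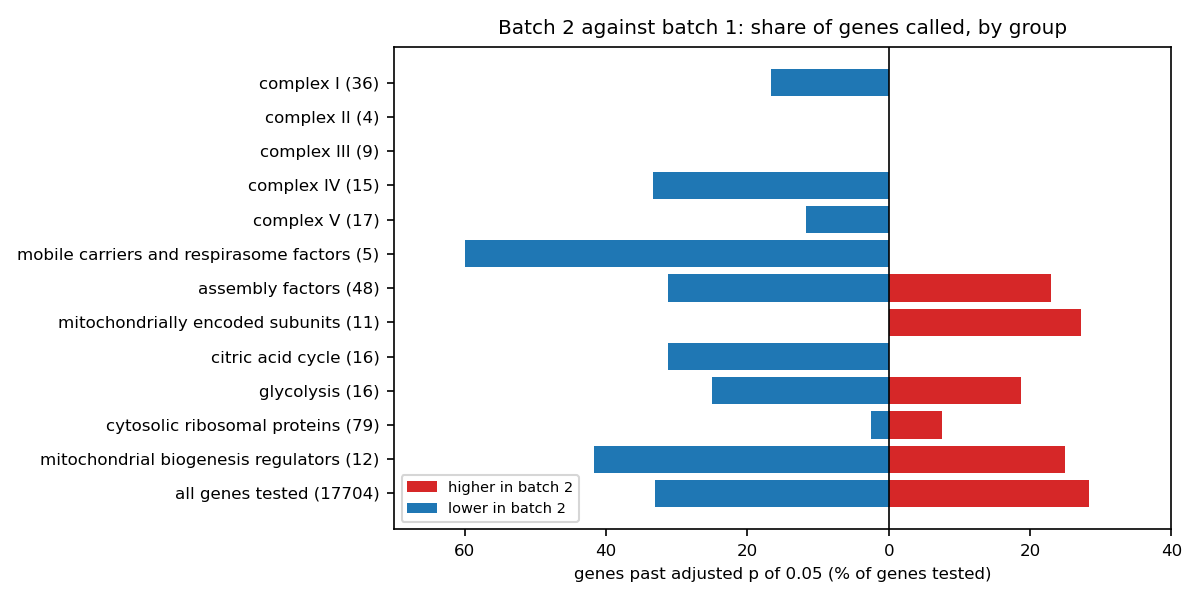
Share of genes past an adjusted p of 0.05 in batch 2 against batch 1 (x axis, percent of genes tested, lower to the left and higher to the right) for the 5 complexes and related groups (y axis, number tested in brackets). The complexes lie between 0 and 33.3%, all lower, against 33.1% of all genes lower and 28.4% higher (61.4% in both directions). Complex IV, at 33.3%, is near the share of all genes called lower.

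With gRNA against control, 0 genes of each of these related lists were called, as 0 of all genes were. The medians were 0.05 for assembly factors, -0.19 for mitochondrially encoded subunits, 0.03 for regulators, -0.05 for citric acid cycle genes and -0.11 for glycolysis genes. Cytosolic ribosomal protein genes had -0.09, replication-dependent histones -0.15 and the mobile carrier genes 0.05.

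Some members have processed copies elsewhere in the genome that can take or lose reads. Of 9 tested members with a copy named in RefSeq by the member's symbol and -ps, 4 were called between batches (Ndufs5, Cox7c, Atp5l and Cox5b), with a median of -0.28. Of 73 without a copy named in this way, 10 were called, with a median of -0.11. Pseudogenes named otherwise, such as Cox6c2, Ndufa11b and Ndufs6b, were not counted as copies. Of all genes, 61.4% were called. Cox5b was not called without gRNA library 1 and control library 2. Reads without a unique alignment were 1.87% to 2.34% of batch 1 libraries and 2.49% to 2.77% of batch 2 libraries. Their part in the differences was not tested. The copies Cox7c-ps1, Atp5l-ps1 and Atp5l-ps2 had at most 8 reads in any library, and Cox5b-ps had 7 to 88. The copy of Ndufs5 was not among the 15 pseudogenes found, so no reads can be given for it.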

How the data were processed

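RNA was made into stranded, ribosomal RNA-depleted libraries, per the labels' protocols. Per the submitters' processing notes, Trimmomatic, STAR, SAMtools and HTSeq were used on GRCm39; no version, annotation or strand setting is stated for them. The authors deposited raw counts for each gene. The 5 HTSeq summary lines entered neither library sizes nor tests. Symbols matched 90.8% of identifiers; Usmg5 and Ndufb1-ps were read as Atp5md and Ndufb1.

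Counts were tested with edgeR 4.0.16 (R 4.3.3) by the quasi-likelihood test: filterByExpr with a minimum count of 10, TMM scaling and Benjamini-Hochberg adjustment at 0.05 over all genes tested. The fit over both batches held treatment and batch; each batch alone and the interaction were also fitted. SE is the log2 fold change over the root of F, and intervals are at 95%. DESeq2 1.42.0 was an alternative. The fit function was also run on simulated counts drawn independently for each gene. These held no shift shared by most genes of a group in a library, so they do not cover the library shifts described above. No transcript lengths were used, so levels are not compared between genes.

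The members, lists, marker sets and tests were chosen with earlier results of these data known. Named members were core subunits, isoforms, up to 3 called members per complex and direction between batches, the 2 smallest p per complex for gRNA, and Atp5s; others are marked. The values of 1 member are not reported here. Promoter windows are RefSeq's, GRCm38.p6. The planned comparison of footprints with mRNA was not run.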

Additional observations from a re-analysis of the deposited data

Results flagged for a closer look

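Named members and the medians of the complexes were screened for a library far from the other 5 of its group, 98 groups in all on the log2(CPM + 0.5) scale, and chance alone picks out about 1 in 20. In 8 groups 1 library stood apart, and each time it was the highest and belonged to batch 1. Control library 2 had 411 CPM of Atp5b, where the other 5 controls had 183 to 245, and 359 CPM of Sdha, where they had 201 to 246. The other 6 cases were gRNA library 1. It had 69.6 CPM of Atp5g1 (47.6 to 53.9 in the other 5 gRNA libraries), 117 of Atp5g3 (72.4 to 84.7), 61.0 of Cox5b (35.6 to 42.5), 105 of Ndufv2 (70.1 to 81.6), 104 of Sdhb (67.9 to 79.1) and 113 of Sdhc (83.2 to 91.7). These are the libraries in which nearly all members were high.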

How the results depend on the processing

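No paired analysis was possible because the RNA-seq labels give no replicate number. With gRNA against control, the count of 0 members called in each direction held in every alternative run, and the members' median ran from -0.16 to 0.02 with 1 library left out (-0.28 to 0.14 in batch 1 alone and -0.11 to 0.02 in batch 2 alone). Between batches, members called higher numbered 2 with DESeq2 size factors, 3 with upper quartile scaling, 2 with DESeq2, 4 without a low-count filter and 1 without libraries 6 of both groups. Over all genes these fits called higher, in the same order, 5051 of 17704, 5413 of 17704, 5151 of 17663, 6706 of 37217 and 5480 of 18223. Leaving out 1 library at a time gave 0 to 7 higher and 10 to 23 lower, the 23 without control library 3, and a median of -0.16 to 0.03. Over the 17998 to 18375 genes tested in those fits, 4775 to 5527 were called higher and 5535 to 6547 lower. Without gRNA library 1 and control library 2, chosen after seeing the data, 24 were higher and 6 lower, against 29.7% and 31.1% of all genes.

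In that alternative the log2 differences of these members described above turned positive: Atp5a1 0.18, Atp5b 0.078, Atp5c1 0.15, Atp5g3 0.0044, Cox4i1 0.12, Cox6a1 0.17, Cox6b1 0.12, Cox7a2 0.19, Cox7b 0.13, Cox8a 0.16, Ndufa4 0.26, Ndufv2 0.050, Sdhb 0.0072, Sdhc 0.074, Sdhd 0.13, Uqcrc2 0.12, Uqcrfs1 0.15 and Uqcrh 0.23. Without a filter Cox7a2 had 0.016, Ndufa4 0.039 and Ndufa4l2 0.0056, and with upper quartile scaling Ndufa4 had 0.021. Values that changed sign with 1 library left out ran from -0.18 to 0.062 for Atp5a1, -0.15 to 0.065 for Atp5c1, -0.21 to 0.0059 for Cox4i1, -0.18 to 0.038 for Cox6a1, -0.082 to 0.12 for Cox7a2, -0.18 to 0.039 for Cox7b, -0.13 to 0.085 for Cox8a, -0.077 to 0.14 for Ndufa4, -0.19 to 0.22 for Ndufa4l2, -0.0080 to 0.12 for Ndufs7, -0.026 to 0.12 for Ndufs8, -0.092 to 0.069 for Uqcrc2, -0.10 to 0.078 for Uqcrfs1 and -0.12 to 0.088 for Uqcrh. Sdhc and Sdhd, also turned by leaving out control library 2, then had 0.0064 and 0.085. The cause was not tested. The planned footprint alternatives were not run. Depth limits Cox6b2 in batch 2, Cox7a1, Ndufa4l2 and the 6 members not tested.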
